A study of Chlamydomonas reinhardtii with 8 samples.

Results

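Chlamydomonas reinhardtii cells starved of zinc were compared, across all genes, 4.5 h after zinc had been given back and at 0 h, immediately before. The comparison took every gene whose FPKM estimate carried the status OK in both conditions, which held for 17695 of the 17737 genes in the deposited table. FPKM divides the fragments of a gene by its transcript length and by the size of the library. The study measured messenger RNA of this unicellular green alga in 8 conditions, and the 2 used here are those after 4.5 h of resupply and at 0 h. Cells of strain CC-4532 grew with acetate (TAP medium) in continuous light. They were passed through 2 successive cultures without added zinc, and the second was the deficient state at 0 h. Zinc chloride at 2.5 µM was then added, and sampling followed over the first 4.5 h (at 1.5, 3 and 4.5 h) and later (at 12 and 24 h). An early and a late zinc-replete culture make up the remaining conditions. No culture was followed for 4.5 h without zinc, so time in culture and zinc cannot be told apart.

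Per the series' design text there were 4 biological replicates of each condition. The table, however, gives each gene 1 value per condition between 2 confidence bounds, so no p-value can be computed and all differences are descriptive. Ratios are log2((FPKM at 4.5 h + 1)/(FPKM at 0 h + 1)), so weakly expressed genes show less than their full change. To be called higher or lower at 4.5 h, a gene needed that this ratio was at least 1 in size, that the bounds of both conditions lay apart, and that its mean over the 8 conditions was at least 1 FPKM. Only called genes are said to rise, fall or be higher or lower. FPKM also gives shares of the messenger RNA sequenced, so less RNA of a gene per cell and more RNA of other genes cannot be told apart.

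Zinc is a cofactor of many enzymes and transcription factors, and cells hold it within narrow limits. Transporters of the ZIP family bring zinc into the cytosol, while cation diffusion facilitators and metal-pumping ATPases move it into organelles or out of the cell. Zinc-limited cells of this alga are known to accumulate copper, and carbonic anhydrases of the carbon concentrating mechanism are themselves zinc enzymes. An alga short of a metal slows its growth, and growth depends on chloroplast build-up, protein synthesis and division.

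After 4.5 h, 1171 of the 11466 genes that passed the level filter were called higher (10.2%) and 747 lower (6.51%), together 16.7%. Without that filter, 1175 genes were called higher and 802 lower, so it removed more lower than higher calls. The median ratio over all these genes was 0.10, with quartiles at -0.27 and 0.52. Genes called higher had a median of 23.8 FPKM at 4.5 h and 8.38 FPKM at 0 h, and genes called lower had a median of 3.99 FPKM at 4.5 h and 15.5 FPKM at 0 h. The largest changes were decreases: past 8-fold on this scale stood 12 genes called higher and 39 called lower. With values rescaled by the median of ratios the counts were 885 higher (7.72%) and 908 lower (7.92%), and with equal totals per condition 739 higher (6.45%) and 1037 lower (9.04%). The median over all genes was then -0.01 and -0.09. The direction of the split thus depends on the scaling, and a total FPKM of 851557 at 4.5 h stood against 720944 at 0 h. Read numbers per library cannot be recovered from the table, and the median distance from value to bound was 19.9% at 4.5 h and 19.7% at 0 h.

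With the deposited values and a pseudocount of 1, highly expressed genes were called higher more often than weakly expressed ones. Shares by level were not computed under the rescalings or other pseudocounts. Level here is the mean over the 8 conditions, which includes the 4.5 h value. A gene expressed mainly at 0 h can therefore sit in a lower bin than its 0 h value. How much of the trend follows from this was not tested. Of genes with a mean of 1 to 3 FPKM, 3.07% were called higher and 5.15% lower. Among those of at least 100 FPKM, the shares were 32.6% higher and 3.86% lower. At the edge of the threshold stood MSRA2 (ratio 1.00, called) and CSL4 (0.99, not called) on the higher side, and SGA1 (called) and CLH1 (not called) on the lower side, these 4 being named for their place at the threshold.

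**Figure D1:**
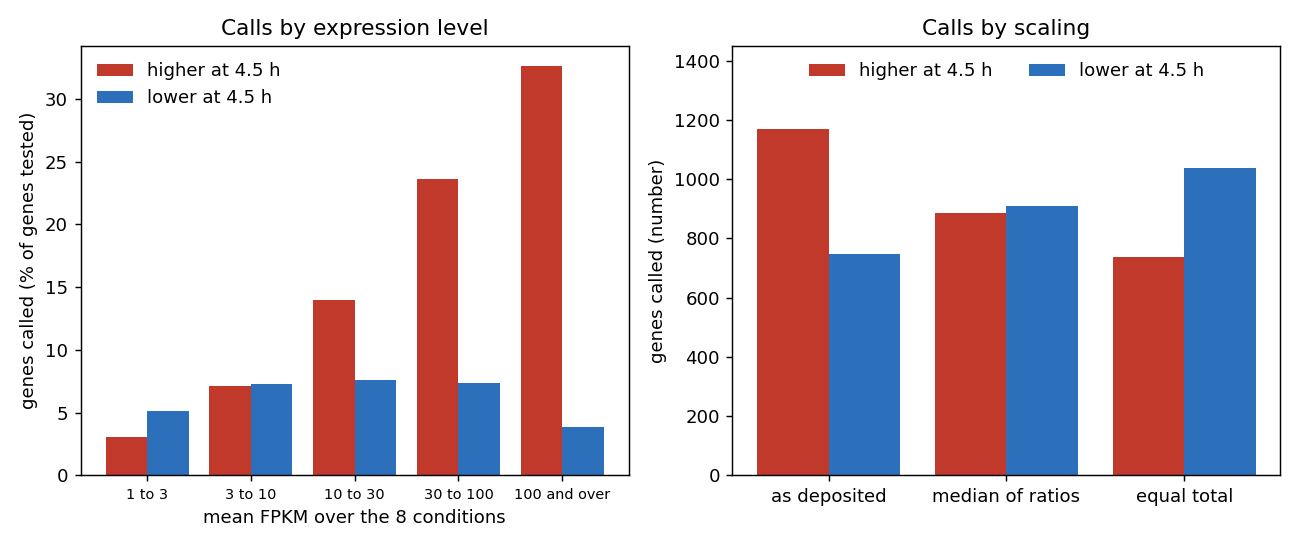
Left, the percentage of genes called higher (red) or lower (blue) at 4.5 h against 0 h in 5 bins of mean FPKM, under the deposited values. The share called higher climbs with level from 3.07% to 32.6%. Right, the number of genes called under the deposited values and 2 rescalings; 1171 higher and 747 lower genes as deposited become 739 and 1037 when totals are made equal.

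The zinc importers that mark deficiency were the zinc genes with the deepest decreases at 4.5 h. ZRT1 (Cre07.g351950, chromosome 7, 5608657 to 5616162 in the table's coordinates) stood at 1.47 FPKM (bounds 1.12 to 1.81) at 4.5 h, against 313 FPKM (bounds 233 to 393) at 0 h, a ratio of -6.99. ZRT3 (Cre13.g573950, chromosome 13, 1658225 to 1661356) stood at 0.119 FPKM (bounds 0.0171 to 0.222) at 4.5 h, against 103 FPKM (bounds 81.9 to 125) at 0 h, a ratio of -6.54. Both encode ZIP family proteins, and both were among the well expressed genes at 0 h. At 4.5 h ZRT3 was near the lower end of detection, while the lower bound of ZRT1 was 1.12 FPKM. ZRT2 fell less, with 8.50 FPKM (bounds 7.02 to 9.98) at 4.5 h, against 104 FPKM (bounds 80.8 to 126) at 0 h, and ZRT5 stood at 8.14 FPKM (bounds 6.72 to 9.56) at 4.5 h, against 44.1 FPKM (bounds 35.2 to 53.0) at 0 h. In all 4 genes the bounds of both conditions lay far apart.

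No other member of the ZIP family that passed the filter was called. Of 14 genes with a ZRT, ZIP or IRT symbol, 12 passed the filter, 4 fell and 0 rose, and their median ratio was -0.11 beside 0.10 over all genes. ZRT4, the most abundant member at 4.5 h, had 39.0 FPKM at 4.5 h, against 23.8 FPKM at 0 h, short of the threshold at 0.69. ZIP3 had 17.0 FPKM at 4.5 h, against 12.3 FPKM at 0 h. ZIP7 had 6.48 FPKM at 4.5 h, against 9.05 FPKM at 0 h, and ZIP6 had 2.61 FPKM at 4.5 h, against 3.22 FPKM at 0 h. The levels of ZIP1 were almost equal, 3.06 against 3.04 FPKM, although this gene lies next to ZRT5 in the table's order. ZIP2, ZIP4 and IRT2 stayed under 3 FPKM in both conditions. IRT1 did not pass the filter on mean level, with 0.206 FPKM at 4.5 h, against 3.56 FPKM at 0 h. Without that filter it was called lower, with a ratio of -1.92.

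Of the genes for zinc efflux and sequestration, the 2 that were called fell, while others lay the other way without a call. MTP1, a cation diffusion facilitator, stood at 9.49 FPKM (bounds 7.82 to 11.2) at 4.5 h, against 69.4 FPKM (bounds 55.5 to 83.3) at 0 h (ratio -2.75). HMA1, a metal-transporting P-type ATPase that in Arabidopsis sits in the chloroplast envelope, stood at 5.66 FPKM (bounds 4.65 to 6.66) at 4.5 h, against 15.9 FPKM (bounds 12.8 to 19.0) at 0 h (ratio -1.35), and was not called with a pseudocount of 5. In this list of 5 genes past the filter, 2 fell and 0 rose, with a median of -0.06. MTP2 (5.13 against 3.26 FPKM), MTP3 (1.63 against 0.715 FPKM) and MTP5 (3.54 against 3.73 FPKM) were not called, each with the 4.5 h value first. The bounds of MTP2 and MTP3 at 4.5 h lay above those at 0 h, but their ratios of 0.52 and 0.62 fell short of the threshold. With a pseudocount of 0.1, MTP3 was called higher (ratio 1.09).

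**Figure D2:**
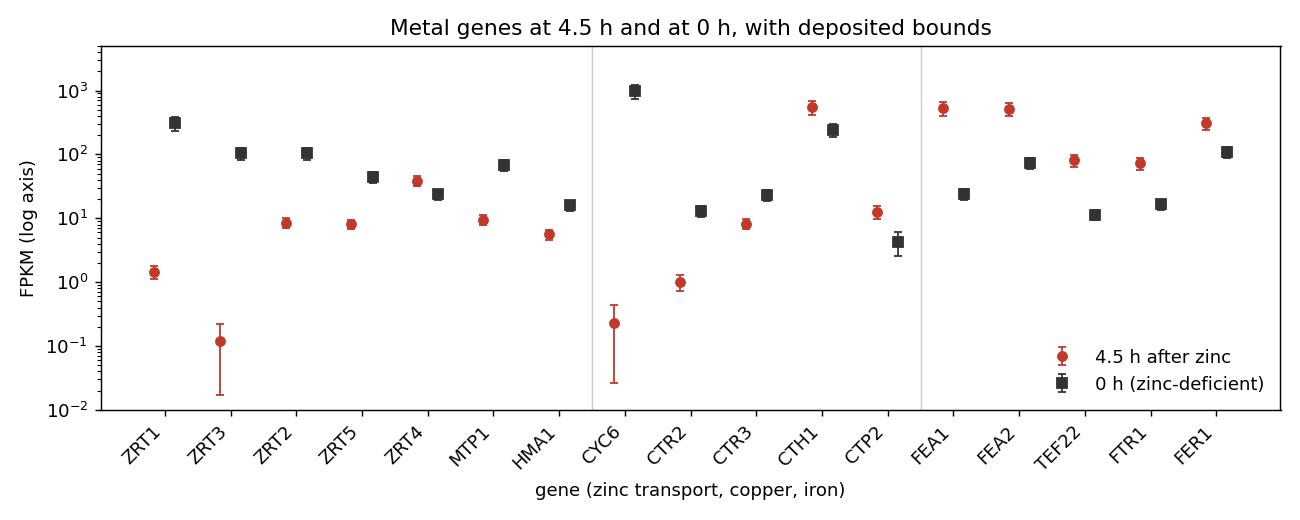
FPKM on a log axis of 17 zinc, copper and iron genes at 4.5 h (red circles) and at 0 h (black squares), with the deposited bounds as bars. ZRT1, ZRT3 and CYC6 sit at 1.47, 0.119 and 0.230 FPKM at 4.5 h, against 313, 103 and 976 at 0 h, while the 5 iron genes lie higher at 4.5 h.

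The largest decrease with a symbol was in a copper-response gene. CYC6 (Cre16.g651050, chromosome 16, 1238558 to 1240109) encodes cytochrome c6, a heme protein that stands in for copper-containing plastocyanin in photosynthesis. It stood at 0.230 FPKM (bounds 0.0262 to 0.434) at 4.5 h, against 976 FPKM (bounds 732 to 1220.4) at 0 h, a ratio of -9.63. Its lower bound at 4.5 h was close to 0, while at 0 h it was the most abundant gene of the copper list. CTR2 and CTR3, of the CTR family of copper transporters, also fell: CTR2 stood at 1.02 FPKM (bounds 0.740 to 1.29) at 4.5 h, against 12.9 FPKM (bounds 10.4 to 15.3) at 0 h, and CTR3 at 8.25 FPKM (bounds 6.82 to 9.67) at 4.5 h, against 23.5 FPKM (bounds 19.0 to 27.9) at 0 h.

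Other copper genes were spread in both directions. Of 13 in the list, 2 rose and 3 fell, with a median of -0.10. CTP2, a copper-pumping ATPase, rose with 12.8 FPKM (bounds 9.87 to 15.7) at 4.5 h, against 4.27 FPKM (bounds 2.54 to 6.01) at 0 h, a call lost with a pseudocount of 5. CTH1, an enzyme of chlorophyll ring formation that is replaced by CRD1 when copper is short, had 548 FPKM (bounds 419 to 677) at 4.5 h, against 241 FPKM (bounds 185 to 297) at 0 h, a call lost under equal totals. CRD1 had 90.0 FPKM at 4.5 h, against 134 FPKM at 0 h, and CPX1, a heme pathway oxidase of the copper regulon, had 271 FPKM at 4.5 h, against 178 FPKM at 0 h; neither was called. CTR1, with 6.54 FPKM at 4.5 h, against 13.8 FPKM at 0 h, was short of the threshold at -0.97 as deposited and was called lower under both rescalings. CRR1, the transcription factor of the copper regulon, had 28.2 FPKM (bounds 22.7 to 33.6) at 4.5 h, against 30.2 FPKM (bounds 24.1 to 36.3) at 0 h, bounds that overlap. The copper chaperones ATX1 (71.6 against 53.3 FPKM) and COX17 (31.4 against 48.5 FPKM, 4.5 h first) were not called either, nor were CTR4 (4.73 against 4.03 FPKM) and CTP3 (2.56 against 2.70 FPKM).

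Most iron assimilation genes rose. FEA1 (Cre12.g546550, chromosome 12, 8671306 to 8675189), a secreted protein of iron uptake, stood at 533 FPKM (bounds 399 to 667) at 4.5 h, against 24.2 FPKM (bounds 19.2 to 29.2) at 0 h, a ratio of 4.40. Its neighbours FEA2, of the same family, and TEF22 rose too: FEA2 stood at 517 FPKM (bounds 399 to 635) at 4.5 h, against 73.5 FPKM (bounds 58.9 to 88.0) at 0 h, and TEF22 at 80.6 FPKM (bounds 63.7 to 97.4) at 4.5 h, against 11.4 FPKM (bounds 9.26 to 13.5) at 0 h. The 3 genes are consecutive on chromosome 12, and the table gives no strand.

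FTR1, the plasma membrane iron permease, had 72.4 FPKM (bounds 58.0 to 86.8) at 4.5 h, against 16.6 FPKM (bounds 13.5 to 19.7) at 0 h. FER1, the more abundant ferritin, an iron store of the plastid, had 309.6 FPKM (bounds 244 to 375) at 4.5 h, against 108 FPKM (bounds 86.9 to 129.9) at 0 h. Of 7 iron genes past the filter, 5 rose and 0 fell, as under both rescalings, and the median ratio was 2.06. FRE1 (0.340 against 0.249 FPKM) and FOX2 (3.38 against 5.57 FPKM, 4.5 h first) were not called, and FER2 did not pass the filter.

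Beyond the metals, the highest ratio of any gene with a symbol was that of LCI1 (Cre03.g162800, chromosome 3, 2885264 to 2887871), an inorganic carbon channel of the plasma membrane. It stood at 192 FPKM (bounds 150.3 to 235) at 4.5 h, against 2.59 FPKM (bounds 1.83 to 3.35) at 0 h, a ratio of 5.75. THIC, the enzyme that makes the pyrimidine part of thiamine, followed FEA1 with 146 FPKM (bounds 115 to 176) at 4.5 h, against 6.16 FPKM (bounds 5.02 to 7.30) at 0 h (ratio 4.36). Both were expressed at 0 h at a few FPKM and at 4.5 h among the well expressed genes. THI4, which makes the thiazole part of the same vitamin, had 2032 FPKM (bounds 1511 to 2554) at 4.5 h, against 404 FPKM (bounds 309 to 499) at 0 h. The remaining genes of the 10 with the highest ratios were CAH2, MIND1, PRL10, RIR2, FTSZ1, ICL1 and FEA2. PRL10 had 12.2 FPKM (bounds 10.1 to 14.3) at 4.5 h, against 0.548 FPKM (bounds 0.355 to 0.741) at 0 h, and its role is not given here.

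The 10 lowest ratios belonged to CYC6, ZRT1, ZRT3, GOX17, TEF13, HYDA1, CDO1, LHCSR2, ZRT2 and LHCSR3. GOX17, of the glyoxal oxidase family of copper radical enzymes, stood at 1.14 FPKM (bounds 0.816 to 1.47) at 4.5 h, against 42.2 FPKM (bounds 33.7 to 50.7) at 0 h (ratio -4.33). TEF13, named for a thylakoid-enriched protein fraction, stood at 6.83 FPKM (bounds 5.41 to 8.25) at 4.5 h, against 139 FPKM (bounds 110.4 to 168) at 0 h (ratio -4.16). CDO1, a cysteine dioxygenase, had 5.44 FPKM (bounds 4.35 to 6.53) at 4.5 h, against 78.7 FPKM (bounds 62.2 to 95.1) at 0 h. All 3 were well expressed at 0 h and stood at a few FPKM at 4.5 h.

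Many genes of chlorophyll and heme synthesis rose. Of 24 tetrapyrrole genes, all past the filter, 15 rose and 2 fell, and the median ratio was 1.23. Under the median of ratios 13 rose, and under equal totals 12. GUN4, which activates magnesium chelatase, stood at 98.9 FPKM (bounds 78.9 to 119) at 4.5 h, against 13.8 FPKM (bounds 11.3 to 16.3) at 0 h (ratio 2.75). GSA1, the aminomutase that completes the synthesis of aminolevulinic acid, stood at 676 FPKM (bounds 519.6 to 832) at 4.5 h, against 109.8 FPKM (bounds 87.3 to 132) at 0 h (ratio 2.61). CHLI1, an ATPase subunit of magnesium chelatase, stood at 509 FPKM (bounds 393 to 624) at 4.5 h, against 117 FPKM (bounds 92.5 to 141) at 0 h (ratio 2.11).

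The early steps and the chlorophyll branch both held genes that rose. Chosen after their values were seen, UPD1 (uroporphyrinogen decarboxylase) had 470.1 FPKM at 4.5 h, against 115 FPKM at 0 h, CHLD (the second chelatase subunit of this class) 109 FPKM at 4.5 h, against 25.7 FPKM at 0 h, and POR1 (light-dependent protochlorophyllide reductase) 590.1 FPKM at 4.5 h, against 201 FPKM at 0 h. The 2 genes that fell act outside the chlorophyll branch. UPM1, the methyltransferase toward siroheme, had 11.2 FPKM (bounds 9.25 to 13.2) at 4.5 h, against 32.5 FPKM (bounds 26.3 to 38.7) at 0 h. HMO2, a heme oxygenase, had 1.38 FPKM (bounds 0.798 to 1.95) at 4.5 h, against 3.94 FPKM (bounds 2.84 to 5.04) at 0 h, a call lost with a pseudocount of 5.

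Antenna and photosystem genes, already abundant at 0 h, rose in part. Of 17 light-harvesting genes, 5 rose and 0 fell, with a median ratio of 0.83, beside 32.6% called higher among all genes of at least 100 FPKM. LHCB5, a minor antenna protein of photosystem II, stood at 3904 FPKM (bounds 2843 to 4966) at 4.5 h, against 1305 FPKM (bounds 961 to 1649) at 0 h. LHCA4 stood at 1478 FPKM (bounds 1115 to 1841) at 4.5 h, against 518 FPKM (bounds 395 to 641) at 0 h, and LHCA5 at 1216 FPKM (bounds 924 to 1508) at 4.5 h, against 426 FPKM (bounds 327 to 525) at 0 h, both antenna proteins of photosystem I. The major trimeric antenna genes were among those not called, and since LHCBM genes are close copies of each other, the counting can split their reads. LHCBM1, the highest of them, had 7457 FPKM at 4.5 h, against 7249.9 FPKM at 0 h (named after its values were seen).

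Of 18 nuclear photosystem genes, 6 rose and 1 fell, with a median of 0.68. Under the median of ratios 5 rose, and under equal totals 4. The share called higher was 10.2% over all genes and 32.6% among those of at least 100 FPKM. The 3 with the highest ratios belong to the PsbP family of lumenal proteins, which holds an oxygen-evolving subunit and proteins like it. PSBP6 had 87.7 FPKM (bounds 71.2 to 104) at 4.5 h, against 20.0 FPKM (bounds 16.4 to 23.6) at 0 h, PSBP2 had 18.8 FPKM (bounds 15.5 to 22.1) at 4.5 h, against 5.73 FPKM (bounds 4.47 to 6.99) at 0 h, and PSBP4 had 50.7 FPKM (bounds 41.4 to 59.9) at 4.5 h, against 17.9 FPKM (bounds 14.7 to 21.2) at 0 h. PSBX, a small subunit of photosystem II, was the gene of this list that fell, with 43.5 FPKM (bounds 27.4 to 59.6) at 4.5 h, against 115 FPKM (bounds 92.0 to 138) at 0 h.

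In electron transfer, 3 of 17 genes rose and 2 fell (2 and 3 under both rescalings). FNR1, which passes electrons from ferredoxin to NADP, stood at 666 FPKM (bounds 507 to 826) at 4.5 h, against 172 FPKM (bounds 134 to 210.2) at 0 h. PETO, a phosphoprotein bound to the cytochrome b6f complex, stood at 771 FPKM (bounds 599 to 944) at 4.5 h, against 305 FPKM (bounds 239.7 to 371) at 0 h, and ATPD, a subunit of the plastid ATP synthase, was at the threshold with 1190.3 FPKM at 4.5 h, against 594 FPKM at 0 h and lost its call under both rescalings and with a pseudocount of 5. NDA3, a type II NADH dehydrogenase, fell with 23.0 FPKM at 4.5 h, against 60.1 FPKM at 0 h, and so did FDX5, a ferredoxin of low-oxygen conditions, with 4.51 FPKM at 4.5 h, against 12.3 FPKM at 0 h, the call of FDX5 being lost with a pseudocount of 5.

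Photoprotection genes moved in both directions. LHCSR2 (Cre08.g367500), a light-harvesting protein that dissipates excess energy, stood at 4.81 FPKM (bounds 3.68 to 5.94) at 4.5 h, against 66.1 FPKM (bounds 53.2 to 79.1) at 0 h. Its close copy LHCSR3 (Cre08.g367400), a neighbour on chromosome 8, stood at 4.99 FPKM (bounds 3.81 to 6.18) at 4.5 h, against 58.6 FPKM (bounds 47.3 to 69.9) at 0 h, and reads shared between the pair are uncertain. ELI4, an early light-inducible protein, fell with 28.1 FPKM at 4.5 h, against 77.9 FPKM at 0 h, while ELI2 rose with 289 FPKM (bounds 231 to 347) at 4.5 h, against 81.4 FPKM (bounds 66.1 to 96.7) at 0 h. Of 8 genes in this list past the filter, 1 rose and 3 fell, with a median of -0.21.

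The most uniform group was the plastid ribosome. Of 36 nuclear genes for its proteins, all past the filter, 35 rose and 0 fell, against 10.2% called higher over all genes. The same count of 35 held under both rescalings. Their ratios ran from 0.58 to 2.21 with a median of 1.61. The gene that was not called was PSRP4, with 12.3 FPKM at 4.5 h, against 7.96 FPKM at 0 h, named after its value was seen.

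Within this list, PRPS10, a protein of the small subunit, had the highest ratio, 2.21, with 776 FPKM (bounds 604 to 949) at 4.5 h, against 168 FPKM (bounds 134 to 201) at 0 h. PRPL7, of the large subunit, stood at 2689 FPKM (bounds 1983 to 3395) at 4.5 h, against 615 FPKM (bounds 464 to 765) at 0 h. PSRP3, a protein found in plastid but not bacterial small subunits, stood at 623 FPKM (bounds 481 to 766) at 4.5 h, against 159 FPKM (bounds 126 to 193) at 0 h. Levels differed between members, but the ratios of the 35 called genes lay within 1 log2 unit of each other.

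Few genes of the other ribosomes were called. Of 51 cytosolic ribosomal protein genes, 1 rose and 1 fell, with a median of 0.01 as deposited that turned to -0.14 and -0.23 under the rescalings. RPL7ae had 5159 FPKM at 4.5 h, against 2479 FPKM at 0 h, a call lost under both rescalings. RPS27e2, a copy of the gene for S27e, fell with 14.6 FPKM (bounds 12.0 to 17.1) at 4.5 h, against 84.0 FPKM (bounds 66.9 to 101) at 0 h. Of 37 mitochondrial ribosomal protein genes, 1 rose and 0 fell, with a median of 0.36. MRPS6 was that gene, with 208 FPKM (bounds 168 to 249) at 4.5 h, against 74.3 FPKM (bounds 60.5 to 88.1) at 0 h.

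Many genes for factors that serve the plastid also rose. Of 15 genes for plastid translation factors and protein import, 10 rose and 0 fell (8 and 7 under the rescalings), with a median of 1.19. ALB3, which inserts proteins into thylakoids, stood at 26.1 FPKM (bounds 21.4 to 30.8) at 4.5 h, against 5.39 FPKM (bounds 4.35 to 6.44) at 0 h. TOC34 and TOC75, receptor and pore of the outer envelope translocon, stood at 56.0 FPKM (bounds 45.7 to 66.4) at 4.5 h, against 13.7 FPKM (bounds 11.2 to 16.2) at 0 h and at 57.7 FPKM (bounds 46.4 to 69.0) at 4.5 h, against 14.7 FPKM (bounds 12.0 to 17.4) at 0 h.

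All 5 genes of the plastid division machinery with a symbol rose, as under both rescalings, and their median ratio was 2.50. This list was drawn up after the ratios of several of its members had been seen. MIND1, which with MinE positions the division site, stood at 42.6 FPKM (bounds 34.8 to 50.3) at 4.5 h, against 3.69 FPKM (bounds 2.87 to 4.50) at 0 h. FTSZ1 and FTSZ2, tubulin relatives that form the division ring, stood at 25.9 FPKM (bounds 21.3 to 30.5) at 4.5 h, against 2.49 FPKM (bounds 1.91 to 3.07) at 0 h and at 14.7 FPKM (bounds 12.1 to 17.3) at 4.5 h, against 1.77 FPKM (bounds 1.35 to 2.18) at 0 h. MINE1 had 22.0 FPKM at 4.5 h, against 4.08 FPKM at 0 h, and MINE2 had 4.76 FPKM at 4.5 h, against 0.604 FPKM at 0 h, a call lost with a pseudocount of 5.

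Translation initiation in the cytosol and ribosome assembly both had many genes that rose. Of 20 translation initiation genes, 13 rose and 0 fell (13 and 12 under the rescalings), with a median of 1.29. The 3 with the highest ratios encode subunits of eIF3, the scaffold that gathers the initiation complex. EIF3E stood at 106 FPKM (bounds 84.0 to 127) at 4.5 h, against 30.1 FPKM (bounds 24.3 to 35.9) at 0 h, EIF3B at 115 FPKM (bounds 91.3 to 138) at 4.5 h, against 33.9 FPKM (bounds 27.5 to 40.4) at 0 h, and EIF3F at 98.0 FPKM (bounds 78.8 to 117) at 4.5 h, against 33.4 FPKM (bounds 27.2 to 39.6) at 0 h.

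Among 11 ribosome biogenesis genes, 6 rose and 0 fell (6 and 5 under the rescalings), with a median of 1.19. NOP10, part of the particle that converts uridines of ribosomal RNA, stood at 144 FPKM (bounds 116 to 172) at 4.5 h, against 40.1 FPKM (bounds 32.8 to 47.5) at 0 h. NOP1, the fibrillarin that methylates ribosomal RNA, stood at 279 FPKM (bounds 219 to 339) at 4.5 h, against 96.0 FPKM (bounds 76.3 to 116) at 0 h, and its partner NOP58 at 149 FPKM (bounds 118 to 180.0) at 4.5 h, against 51.2 FPKM (bounds 41.2 to 61.2) at 0 h. All 11 had a ratio over 0.

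Several genes for protein entry into the endoplasmic reticulum rose as well, in a list drawn up after its values had been seen. Of 8 genes, 6 rose and 0 fell (5 and 3 under the rescalings), with a median of 1.19. SEC61A, the channel subunit, stood at 234 FPKM (bounds 184 to 285) at 4.5 h, against 67.1 FPKM (bounds 53.7 to 80.4) at 0 h, and SEC61B at 248 FPKM (bounds 198 to 298) at 4.5 h, against 88.6 FPKM (bounds 71.7 to 106) at 0 h. SPC25, of the signal peptidase complex, stood at 24.6 FPKM at 4.5 h, against 9.84 FPKM at 0 h, a call lost with a pseudocount of 5. Of 70 vesicle traffic genes, 0 rose and 2 fell, namely VPS5A (21.4 against 46.1 FPKM) and VPS2B (7.19 against 15.8 FPKM, 4.5 h first); 4 and 8 fell under the rescalings, and both named calls were lost with a pseudocount of 5. The list's median was -0.12.

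**Figure D3:**
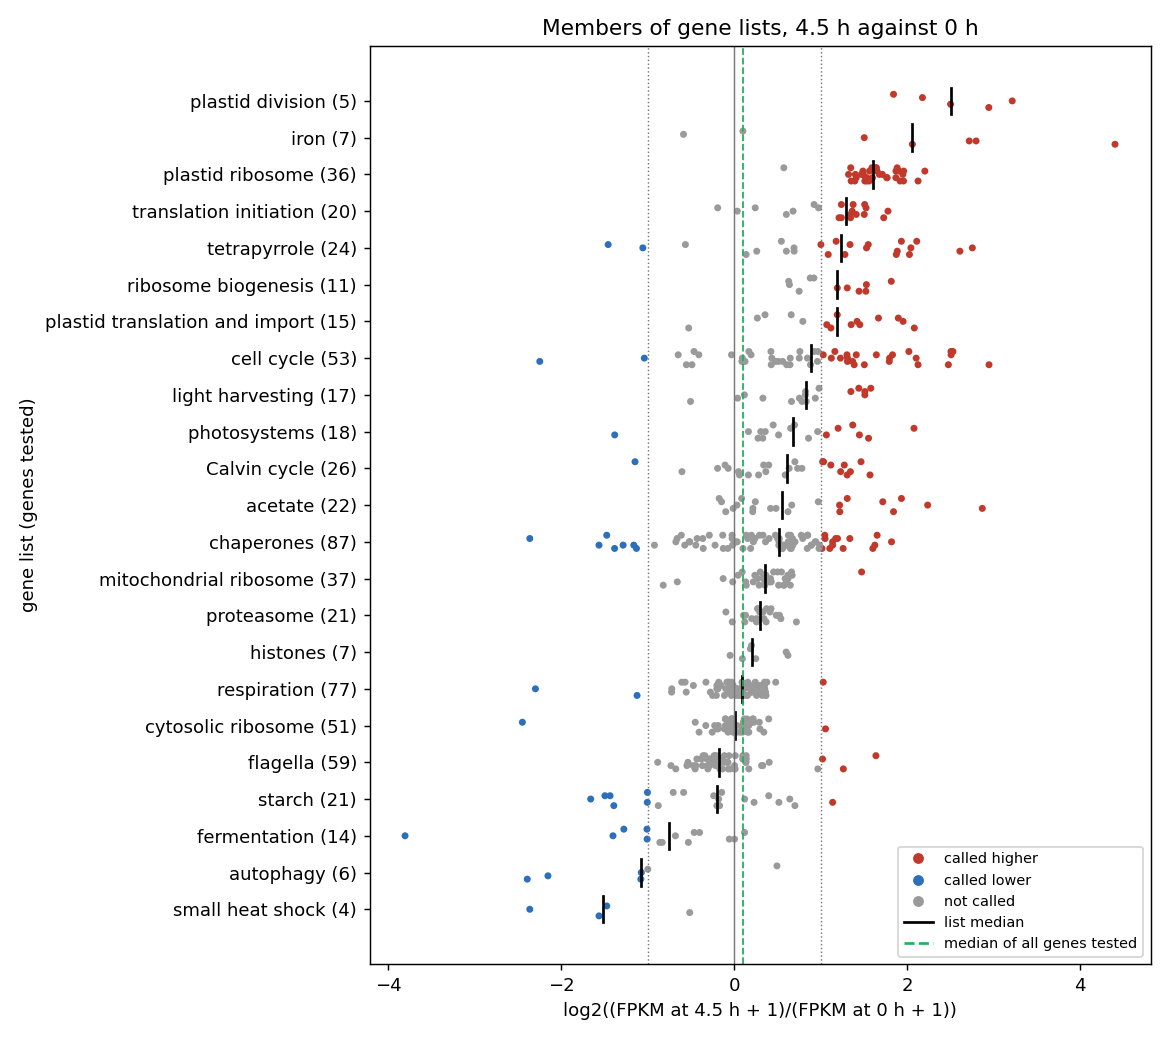
Each point is a gene, placed by its log2 ratio of 4.5 h over 0 h, with gene lists down the page (genes past the filter in brackets). Red points were called higher, blue points lower and grey points neither; black bars mark list medians and the green dashed line the median of all genes, 0.10. The 36 plastid ribosome genes sit between 0.58 and 2.21, while the 51 cytosolic ribosome genes centre on 0.01.

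Genes of DNA replication and mitosis were weakly expressed at 0 h, and many were higher at 4.5 h. Of 53 cell cycle genes past the filter (62 matched), 23 rose and 2 fell (22 rose under each rescaling), with a median of 0.88. RIR2, the small subunit of ribonucleotide reductase, stood at 29.7 FPKM (bounds 24.3 to 35.1) at 4.5 h, against 2.98 FPKM (bounds 2.35 to 3.60) at 0 h (ratio 2.95). CYCA1, an A-type cyclin, stood at 15.4 FPKM (bounds 12.7 to 18.0) at 4.5 h, against 1.83 FPKM (bounds 1.34 to 2.33) at 0 h. MCM2, of the replicative helicase, stood at 10.3 FPKM (bounds 8.54 to 12.1) at 4.5 h, against 0.991 FPKM (bounds 0.718 to 1.26) at 0 h.

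The other helicase genes, named after their values were seen, were not uniform. MCM3 (7.05 against 0.983 FPKM), MCM4 (6.96 against 0.824 FPKM), MCM6 (9.54 against 1.45 FPKM) and MCM7 (11.6 against 2.55 FPKM, 4.5 h first in each) rose, while MCM5, with 11.0 FPKM at 4.5 h, against 10.0 FPKM at 0 h, was not called. The genes that fell were ORC5 and ALK3. ORC5, a subunit of the origin recognition complex, stood at 2.86 FPKM (bounds 2.21 to 3.51) at 4.5 h, against 17.3 FPKM (bounds 14.2 to 20.5) at 0 h. It lies beside ZRT5 on chromosome 7, where ZRT5 spans 6052112 to 6056305 and ORC5 6057666 to 6063027. ORC2 (2.15 against 0.406 FPKM) and ORC4 (2.50 against 0.335 FPKM) of the same complex rose, both calls lost with a pseudocount of 5. The part of its neighbour in the value of ORC5 was not tested. ALK3, an aurora-like kinase, stood at 4.79 FPKM at 4.5 h, against 10.9 FPKM at 0 h, a call lost with a pseudocount of 5.

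Histone genes gave little to go on, since 7 of 58 matched genes passed the filter. In that group 0 rose and 0 fell, with ratios from -0.05 to 0.62 and a median of 0.20.

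Few flagellar genes were called. Of 59 structural genes past the filter, 3 rose and 0 fell, with a median of -0.18; of 193 genes for flagellar associated proteins, 5 rose and 0 fell, with a median of -0.09. Among 19 genes for intraflagellar transport 0 rose and 0 fell. FMG1-A and FMG1-B, large glycoproteins of the flagellar membrane, had 24.2 FPKM at 4.5 h, against 7.07 FPKM at 0 h, and 5.85 FPKM at 4.5 h, against 1.85 FPKM at 0 h, the call of FMG1-B being lost with a pseudocount of 5. POC1, a basal body protein, had 2.14 FPKM at 4.5 h, against 0.546 FPKM at 0 h, lost under both rescalings and with a pseudocount of 5. Among the flagellar associated proteins, FAP269 had 106 FPKM at 4.5 h, against 20.8 FPKM at 0 h, FAP40 3.63 FPKM at 4.5 h, against 0.446 FPKM at 0 h (lost with a pseudocount of 5) and FAP224 203 FPKM at 4.5 h, against 77.2 FPKM at 0 h. TUB2, a beta tubulin gene with a close copy, was the tubulin gene of 5 that rose, with 90.6 FPKM at 4.5 h, against 35.8 FPKM at 0 h.

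Among carbon genes, calls in the Calvin cycle and acetate lists were mostly higher and those in the starch and fermentation lists mostly lower, while most members of each list were not called. Of 26 Calvin cycle genes, 9 rose and 1 fell (6 and 1 under both rescalings), with a median of 0.61, beside 32.6% called higher among all genes of at least 100 FPKM. TRK1, the transketolase, stood at 1218 FPKM (bounds 904 to 1532) at 4.5 h, against 409 FPKM (bounds 307 to 511) at 0 h. RBCS1, a small subunit gene of Rubisco, stood at 3685 FPKM (bounds 2708 to 4662) at 4.5 h, against 1332 FPKM (bounds 978 to 1685) at 0 h, and PGK1, phosphoglycerate kinase, at 386 FPKM (bounds 299 to 474) at 4.5 h, against 151 FPKM (bounds 118 to 185) at 0 h. GAP1, a glyceraldehyde phosphate dehydrogenase, fell with 285 FPKM (bounds 223 to 346) at 4.5 h, against 631 FPKM (bounds 474 to 788) at 0 h.

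Carbon concentrating genes were divided. Of 31 past the filter, 7 rose and 4 fell, and the median of 0.18 turned to -0.03 under equal totals. After LCI1, LCI26 had the next highest ratio, with 5.83 FPKM at 4.5 h, against 1.03 FPKM at 0 h, a call lost with a pseudocount of 5. LCIB, a protein that surrounds the pyrenoid, had 611 FPKM (bounds 469 to 752) at 4.5 h, against 218 FPKM (bounds 165 to 271) at 0 h. LCI33 (3.21 FPKM at 4.5 h, against 36.2 FPKM at 0 h), LCI30 (104 FPKM at 4.5 h, against 423 FPKM at 0 h) and LCI9 (38.1 FPKM at 4.5 h, against 126 FPKM at 0 h) fell.

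Of 11 carbonic anhydrase genes, the zinc enzymes that interconvert carbon dioxide and bicarbonate, 3 rose and 0 fell, with a median of 0.19 that turned to -0.05 under equal totals. CAH1, the periplasmic enzyme of low carbon dioxide, stood at 1688 FPKM (bounds 1214 to 2163) at 4.5 h, against 286 FPKM (bounds 216 to 356) at 0 h (ratio 2.56). Its neighbour CAH2 stood at 25.4 FPKM (bounds 20.8 to 30.0) at 4.5 h, against 1.54 FPKM (bounds 1.13 to 1.95) at 0 h (ratio 3.38). CAH5, a mitochondrial enzyme, stood at 67.6 FPKM (bounds 51.7 to 83.6) at 4.5 h, against 26.5 FPKM (bounds 21.7 to 31.3) at 0 h, and its close copy CAH4 had 88.6 FPKM at 4.5 h, against 76.3 FPKM at 0 h (named after its value was seen), with reads that may be shared.

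Acetate is the organic carbon of the medium, and of 22 genes for its use, 8 rose and 0 fell (8 and 6 under the rescalings), with a median of 0.55. As deposited, 10.2% of all genes and 32.6% of those of at least 100 FPKM were called higher. ICL1, isocitrate lyase of the glyoxylate cycle, stood at 1401 FPKM (bounds 1042 to 1761) at 4.5 h, against 191 FPKM (bounds 149 to 233) at 0 h (ratio 2.87). ACS3, an acetyl-CoA synthetase, stood at 243 FPKM (bounds 187 to 298) at 4.5 h, against 50.7 FPKM (bounds 40.2 to 61.1) at 0 h, and CIS2, a citrate synthase, at 155 FPKM (bounds 122 to 189) at 4.5 h, against 39.9 FPKM (bounds 32.1 to 47.7) at 0 h. The succinate dehydrogenase genes SDH2 (109 against 103 FPKM), SDH3 (97.8 against 105 FPKM) and SDH4 (114 against 115 FPKM), 4.5 h first and named after their values were seen, were not called.

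Fermentation genes fell or were not called. Of 14 past the filter, 0 rose and 5 fell (5 and 6 under the rescalings), with a median of -0.76. HYDA1, an iron hydrogenase, stood at 9.53 FPKM (bounds 7.84 to 11.2) at 4.5 h, against 146 FPKM (bounds 114 to 178) at 0 h (ratio -3.80), and ADH1, the alcohol dehydrogenase of fermentation, at 70.0 FPKM (bounds 55.7 to 84.3) at 4.5 h, against 187 FPKM (bounds 143 to 230.3) at 0 h.

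Starch genes were lower more often than higher, with 1 rise and 6 falls among 21 and a median of -0.20. SSS3 (Cre06.g282000; another gene carries the same symbol), a soluble starch synthase, stood at 11.4 FPKM (bounds 9.01 to 13.7) at 4.5 h, against 38.0 FPKM (bounds 30.2 to 45.8) at 0 h. GWD2, a starch-phosphorylating dikinase, stood at 6.30 FPKM at 4.5 h, against 19.6 FPKM at 0 h, and SBE3, a branching enzyme, at 43.0 FPKM at 4.5 h, against 118 FPKM at 0 h. SSS2 rose, with 30.6 FPKM at 4.5 h, against 13.3 FPKM at 0 h, a call lost under equal totals and with a pseudocount of 5.

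Most of the few autophagy genes past the filter fell. Of 6 autophagy genes past the filter, 0 rose and 4 fell, with a median of -1.08, and 5 fell under both rescalings. Its members include symbols added to the list after values had been seen. APG8, the ubiquitin-like protein that coats autophagosomes, stood at 102 FPKM (bounds 82.4 to 121) at 4.5 h, against 539 FPKM (bounds 411 to 666) at 0 h. APG3, the enzyme that conjugates APG8 to lipid, stood at 14.8 FPKM (bounds 12.1 to 17.4) at 4.5 h, against 69.0 FPKM (bounds 55.8 to 82.3) at 0 h, and APG12, a second ubiquitin-like protein, at 8.94 FPKM at 4.5 h, against 20.0 FPKM at 0 h, a call lost with a pseudocount of 5.

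Small heat shock proteins hold damaged proteins in solution, and 3 of 4 such genes past the filter fell, with a median of -1.52. HSP22E stood at 217 FPKM (bounds 173 to 261) at 4.5 h, against 1121 FPKM (bounds 831 to 1410.5) at 0 h. HSP22F, its direct neighbour on chromosome 14, stood at 199 FPKM (bounds 158 to 239) at 4.5 h, against 553 FPKM (bounds 418 to 687) at 0 h, and the sequences of both are alike, so shared reads are uncertain. HSP22B fell at a low level, with 0.958 FPKM at 4.5 h, against 4.78 FPKM at 0 h, a call lost with a pseudocount of 5, which leaves 2 of the 4.

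The chaperone list as a whole held 14 rises and 7 falls among 87 genes, with a median of 0.52, and 8 and 8 or 7 and 8 under the rescalings. The shares over all genes were 10.2% called higher and 6.51% lower. CPN60A and CPN60B2, subunits of the plastid chaperonin that folds Rubisco among other proteins, rose, with 197 FPKM (bounds 154 to 240.4) at 4.5 h, against 55.1 FPKM (bounds 43.9 to 66.2) at 0 h, and 307 FPKM (bounds 239 to 375) at 4.5 h, against 97.0 FPKM (bounds 76.9 to 117) at 0 h. CYN26, a cyclophilin, had 22.9 FPKM at 4.5 h, against 6.73 FPKM at 0 h. Of 21 proteasome genes 0 rose and 0 fell, with ratios up to 0.72.

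Among 23 genes for Clp, FtsH and DEG proteases, 7 rose and 4 fell, and under each rescaling 2 rose and 4 fell. As deposited, the shares over all genes were 10.2% higher and 6.51% lower, with 23.6% higher among those of 30 to 100 FPKM. DEG9 (41.9 FPKM at 4.5 h, against 11.5 FPKM at 0 h) and CLPS4 (63.0 FPKM at 4.5 h, against 26.1 FPKM at 0 h) kept their calls, whereas CLPR6 (69.0 FPKM at 4.5 h, against 31.1 FPKM at 0 h) lost its own under both. DEG11 (32.1 FPKM at 4.5 h, against 119 FPKM at 0 h), DEG1 (7.38 FPKM at 4.5 h, against 20.7 FPKM at 0 h) and CLPD1 (9.23 FPKM at 4.5 h, against 20.1 FPKM at 0 h) fell, the call of CLPD1 being lost with a pseudocount of 5.

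Redox genes showed no common direction. Of 37 antioxidant genes, 5 rose and 3 fell (2 and 4 under both rescalings), with a median of 0.34. Over all genes, 10.2% were called higher and 6.51% lower. GPX1, a glutathione peroxidase, fell with 16.6 FPKM (bounds 13.7 to 19.6) at 4.5 h, against 72.4 FPKM (bounds 58.6 to 86.2) at 0 h. NTR2, a thioredoxin reductase, fell with 8.86 FPKM at 4.5 h, against 21.9 FPKM at 0 h and MSRA5, a methionine sulfoxide reductase, with 13.0 FPKM at 4.5 h, against 29.1 FPKM at 0 h, both calls lost with a pseudocount of 5. GRX6, a glutaredoxin, rose with 72.4 FPKM at 4.5 h, against 22.6 FPKM at 0 h, NTR3 with 22.4 FPKM at 4.5 h, against 8.53 FPKM at 0 h, and CAT1, a catalase, with 120.5 FPKM at 4.5 h, against 55.8 FPKM at 0 h, the call of CAT1 lost under both rescalings. MSD2, a manganese superoxide dismutase, was the gene of 4 in its list that fell, with 27.4 FPKM (bounds 22.5 to 32.3) at 4.5 h, against 68.5 FPKM (bounds 54.8 to 82.1) at 0 h.

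Sulfate and phosphate genes fell more often than they rose. Of 32 past the filter, 2 rose and 6 fell, and the median of 0.11 turned to -0.01 and -0.09 under the rescalings. SLT1 and SLT2, sodium-sulfate transporters, stood at 26.4 FPKM (bounds 21.2 to 31.5) at 4.5 h, against 218 FPKM (bounds 165 to 272) at 0 h, and at 57.5 FPKM (bounds 45.8 to 69.2) at 4.5 h, against 219 FPKM (bounds 167 to 271) at 0 h. SAT1, serine acetyltransferase of cysteine synthesis, had 22.3 FPKM at 4.5 h, against 69.3 FPKM at 0 h. PTA3 (5.33 FPKM at 4.5 h, against 0.525 FPKM at 0 h) and PTB3 (12.1 FPKM at 4.5 h, against 4.62 FPKM at 0 h), phosphate transporters, rose, both calls lost with a pseudocount of 5.

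Nitrogen genes were split, with 3 rises and 2 falls among 15 and a median of -0.12. RHP1, a Rhesus-type channel, had 5.14 FPKM at 4.5 h, against 0.566 FPKM at 0 h, and NAR1.5, a formate and nitrite transporter family gene, 12.3 FPKM at 4.5 h, against 4.64 FPKM at 0 h; both calls were lost with a pseudocount of 5. GSF1, a ferredoxin-dependent glutamate synthase, had 79.9 FPKM at 4.5 h, against 37.2 FPKM at 0 h, lost under both rescalings. GDH1, a glutamate dehydrogenase, fell with 13.1 FPKM at 4.5 h, against 38.7 FPKM at 0 h, and NAR1.4 with 8.44 FPKM at 4.5 h, against 22.9 FPKM at 0 h.

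Some genes of the biosynthetic lists rose. Over all genes, 10.2% were called higher as deposited. By mean level the share was 23.6% at 30 to 100 FPKM and 32.6% at 100 FPKM and over. Of 34 amino acid synthesis genes, 9 rose and 0 fell, against 4 and 1 under equal totals, with a median of 0.60. SHK5 had 46.8 FPKM at 4.5 h, against 12.5 FPKM at 0 h, AST4, an aspartate aminotransferase, 72.6 FPKM at 4.5 h, against 24.4 FPKM at 0 h, and THS1, threonine synthase, 200.0 FPKM at 4.5 h, against 76.4 FPKM at 0 h. Of 13 fatty acid genes, 4 rose and 1 fell (2 and 1 under equal totals): KAS2 (38.8 FPKM at 4.5 h, against 12.8 FPKM at 0 h) and KAS1 (134 FPKM at 4.5 h, against 47.6 FPKM at 0 h), condensing enzymes of chain elongation, and BCC1 (264 FPKM at 4.5 h, against 111 FPKM at 0 h), a subunit of acetyl-CoA carboxylase, rose, and DGD1, which makes a galactolipid, fell with 14.1 FPKM at 4.5 h, against 34.1 FPKM at 0 h. The call of BCC1 was lost under equal totals.

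Of 15 isoprenoid genes, 5 rose and 1 fell, beside 10.2% called higher and 6.51% lower over all genes. VTE5, phytol kinase, had 13.3 FPKM at 4.5 h, against 2.96 FPKM at 0 h, CMK1 22.0 FPKM at 4.5 h, against 5.68 FPKM at 0 h and DXR1 93.6 FPKM at 4.5 h, against 34.0 FPKM at 0 h, and both CMK1 and DXR1 act in the plastid isoprenoid pathway. PTO1, a plastid terminal oxidase, fell with 29.7 FPKM at 4.5 h, against 86.2 FPKM at 0 h. Of 9 thiamine and methionine genes, 4 rose and 0 fell, against 3 and 2 higher under the rescalings. THI10 was the most weakly expressed of those named, with 4.32 FPKM at 4.5 h, against 1.44 FPKM at 0 h, a call lost under equal totals and with a pseudocount of 5. The 2 lipid turnover genes, BTA1 of betaine lipid synthesis (77.5 FPKM at 4.5 h, against 36.7 FPKM at 0 h) and PGD1, a galactolipid lipase (10.2 FPKM at 4.5 h, against 4.39 FPKM at 0 h), were called as deposited, but neither under a rescaling nor with a pseudocount of 5.

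Few respiratory genes were called. Of 77 genes for the respiratory chain, 1 rose and 2 fell, and the median of 0.09 turned to -0.06 and -0.15 under the rescalings. UCP1, a mitochondrial uncoupling protein, had 89.3 FPKM at 4.5 h, against 43.2 FPKM at 0 h, lost under both rescalings and with a pseudocount of 5. NUOS4b, of complex I, fell with 4.49 FPKM at 4.5 h, against 26.0 FPKM at 0 h, and AOX1, an alternative oxidase, with 16.9 FPKM at 4.5 h, against 37.9 FPKM at 0 h, the call of AOX1 being lost with a pseudocount of 5. Of 13 vacuolar ATPase genes 0 rose and 0 fell. Of 41 cyclic nucleotide genes 1 rose and 0 fell, namely CYG14 (5.39 FPKM at 4.5 h, against 1.50 FPKM at 0 h), a call lost with a pseudocount of 5. TIM21 (11.9 FPKM at 4.5 h, against 4.71 FPKM at 0 h), of 13 mitochondrial import genes, and MBB1 (14.4 FPKM at 4.5 h, against 6.02 FPKM at 0 h), of 6 organelle transcription genes, each rose alone in their lists and lost the call under equal totals and with a pseudocount of 5.

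Of 22 cell wall genes past the filter, 3 rose and 6 fell, with a median of -0.13. GAS28 (18.9 FPKM (bounds 15.6 to 22.3) at 4.5 h, against 58.3 FPKM (bounds 46.3 to 70.2) at 0 h), PHC19 (7.01 FPKM at 4.5 h, against 22.6 FPKM at 0 h) and PHC8 (31.0 FPKM at 4.5 h, against 78.9 FPKM at 0 h), hydroxyproline-rich wall glycoproteins of the pherophorin class, fell. MMP9, a matrix metalloprotease, rose with 11.9 FPKM (bounds 9.80 to 14.0) at 4.5 h, against 1.19 FPKM (bounds 0.909 to 1.46) at 0 h, as did PHC5 with 23.8 FPKM at 4.5 h, against 8.21 FPKM at 0 h and PHC3 with 968 FPKM at 4.5 h, against 413 FPKM at 0 h, the call of PHC3 being lost under equal totals.

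Most genes called have no symbol in the table, with 373 of 1171 higher genes and 134 of 747 lower genes carrying one. The lowest ratios without a symbol were those of Cre02.g118400 (chromosome 2, 6742697 to 6747622), with 0.261 FPKM (bounds 0.106 to 0.417) at 4.5 h, against 394 FPKM (bounds 300.0 to 489) at 0 h, and g15199 (chromosome 14, 3509515 to 3515737), with 1.80 FPKM (bounds 1.35 to 2.24) at 4.5 h, against 476 FPKM (bounds 355 to 598) at 0 h. At 0 h both were in the range of ZRT1. The highest were those of Cre17.g708750 (chromosome 17, 1701855 to 1705790), with 122 FPKM (bounds 96.6 to 148) at 4.5 h, against 7.73 FPKM (bounds 6.32 to 9.14) at 0 h, and Cre15.g641200 (chromosome 15, 1184414 to 1190369), with 75.6 FPKM (bounds 60.5 to 90.7) at 4.5 h, against 7.20 FPKM (bounds 5.86 to 8.53) at 0 h.

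Against 3 h, the preceding sample, few genes differed. Of 11481 genes past the filter, 29 were called higher at 4.5 h (0.253%) and 11 lower (0.0958%), together 0.348%. LCI1 had 192 FPKM at 4.5 h, against 91.3 FPKM at 3 h. PGK1 had 386 FPKM at 4.5 h, against 120.0 FPKM at 3 h. CYC6 was lower, with 0.230 FPKM at 4.5 h, against 2.05 FPKM at 3 h, a call lost with a pseudocount of 5.

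Other named genes in this step included CAH5, CYCA1, SLT1 and PSBX. MINE1 (22.0 against 10.3 FPKM), SGA1 (47.3 against 20.8 FPKM) and CAH4 (88.6 against 29.1 FPKM) were also higher, with the 4.5 h value first. Cre02.g118400 was lower, with 0.261 FPKM at 4.5 h, against 2.22 FPKM at 3 h. CAH5 had 67.6 FPKM at 4.5 h, against 22.9 FPKM at 3 h, and CYCA1 had 15.4 FPKM at 4.5 h, against 6.30 FPKM at 3 h. SLT1 was lower, with 26.4 FPKM at 4.5 h, against 54.6 FPKM at 3 h, and PSBX likewise, with 43.5 FPKM at 4.5 h, against 132 FPKM at 3 h. The calls of CYCA1, SLT1, MINE1 and Cre02.g118400 in this step were lost with a pseudocount of 5, and that of SLT1 also under equal totals. The levels of PSBX over time were 115 FPKM at 0 h, 72.1 at 1.5 h, 132 at 3 h, 43.5 at 4.5 h and 329.8 at 12 h, so it was lowest at 4.5 h of all 8 conditions.

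The sample after 4.5 h was taken at 12 h. At 12 h against 4.5 h, 200 of 11470 genes were called higher (1.74%) and 146 lower (1.27%), together 3.02%, and under equal totals 327 and 79, a larger share of higher calls. The plastid ribosome list had a median of -0.85 in this step, with 0 of its genes called lower. GSA1 had 295 FPKM at 12 h, against 676 FPKM at 4.5 h, and GUN4 had 46.7 FPKM at 12 h, against 98.9 FPKM at 4.5 h, both lower, the call of GUN4 being lost under both rescalings. Histone genes past the filter were lower at 12 h in 6 of 7 cases, with a median of -1.35.

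Among the acetate genes, ACS3 was called higher at 12 h. It had 552 FPKM at 12 h, against 243 FPKM at 4.5 h. ICL1 had 2355 FPKM at 12 h, against 1401 FPKM at 4.5 h, short of the threshold. HYDA1 and TEF13, which had fallen at 4.5 h, were higher again at 12 h: HYDA1 had 60.3 FPKM at 12 h, against 9.53 FPKM at 4.5 h, and TEF13 had 61.3 FPKM at 12 h, against 6.83 FPKM at 4.5 h.

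Over the whole time course, ZRT1 and CYC6 had their largest values at 0 h and a small part of them by 1.5 h. ZRT1 had 313 FPKM at 0 h, 7.00 at 1.5 h, 3.37 at 3 h, 1.47 at 4.5 h, 0.646 at 12 h and 0.244 at 24 h. CYC6 had 976 FPKM at 0 h, 88.1 at 1.5 h, 2.05 at 3 h, 0.230 at 4.5 h, 0.0323 at 12 h and 0.0402 at 24 h. FEA1 stood at a larger value in each later sample, with 24.2 FPKM at 0 h, 384 at 1.5 h, 453 at 3 h, 533 at 4.5 h, 1079 at 12 h and 1318 at 24 h. The plastid ribosome gene PRPS10 had its largest value at 3 h, with 168 FPKM at 0 h, 746 at 1.5 h, 928 at 3 h, 776 at 4.5 h, 406 at 12 h and 467 at 24 h.

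**Figure D4:**
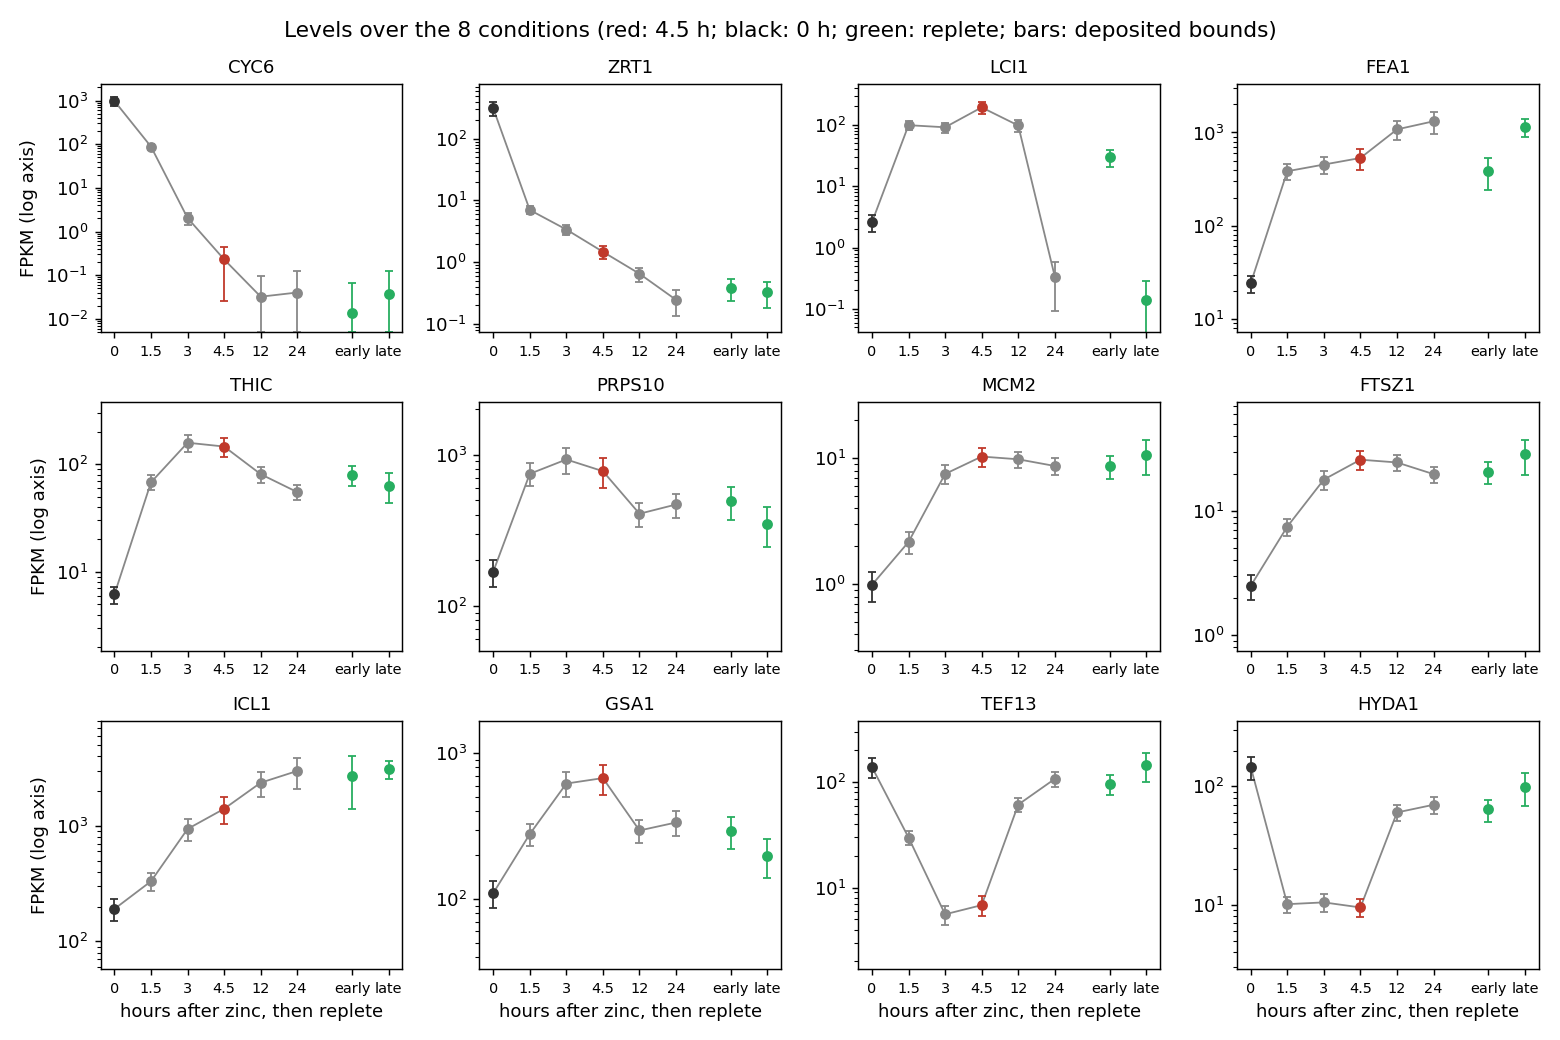
FPKM on a log axis, with deposited bounds, of 12 genes at the 6 times from 0 to 24 h after zinc and in early and late replete cultures, spaced evenly and not by time. The 4.5 h point (red) is the highest of the time course for LCI1, MCM2, FTSZ1 and GSA1. Except for LCI1, its bounds overlap those of another time point in these genes. At 4.5 h, TEF13 at 6.83 and HYDA1 at 9.53 FPKM lie far beneath their replete levels (green).

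Against the replete cultures, 4.5 h cells lay nearer to the early than to the late one by the number of calls. Against early replete cells, 141 of 11470 genes were called higher at 4.5 h (1.23%) and 216 lower (1.88%), together 3.11%. Against late replete cells, 722 of 11473 were higher (6.29%) and 382 lower (3.33%), together 9.62%, which turned to 372 and 593 under equal totals. These comparisons share the 4.5 h value with each other and with the comparison against 0 h, so each stands on its own values only. Bounds were also wider in the late replete condition, with a median distance of 31.0% from the value, against 22.5% in the early one.

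ZRT1 and ZRT3 were not called against either replete culture, although the bounds of ZRT1 at 4.5 h lay above those of both. ZRT1 had 1.47 FPKM at 4.5 h, against 0.383 FPKM in the early replete culture and 0.325 FPKM in the late one, and its ratios of 0.84 and 0.90 fell short of the threshold on the scale with a pseudocount of 1. ZRT3 had 0.119 FPKM at 4.5 h, against 0.144 and 0.135. CYC6 had 0.230 FPKM at 4.5 h, against 0.0139 and 0.0372 in the same order. The plastid division genes MIND1 (42.6 FPKM at 4.5 h, against 44.5 and 54.3) and FTSZ1 (25.9, against 20.7 and 28.6) were not called against either culture. The same holds of MCM2 (10.3, against 8.64 and 10.6).

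Some genes were past their replete level at 4.5 h. GSA1 had 676 FPKM at 4.5 h, against 293 FPKM (early replete) and 199 FPKM (late replete), and was called higher against both. LCI1 (192 FPKM, against 29.8 and 0.140), CAH1 (1688, against 548 and 8.10) and FEA2 (517, against 57.2 and 85.4) were too. The early and late values of LCI1 and CAH1 lie far apart from each other. In the plastid ribosome list, 0 genes were called against early and 27 against late replete cells, with medians of 0.57 and 1.05 as deposited. Under equal totals PRPS10, PRPL7 and PSRP3 lost their calls against late replete cells, with ratios of 0.94, 0.89 and 0.90. The count for the whole list in this comparison was not computed under the rescalings.

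Others had not reached their replete level or had fallen beneath it. ICL1 had 1401 FPKM at 4.5 h, against 2707 FPKM in the early and 3082 FPKM in the late replete culture, and was called lower against the late culture only. HYDA1 (9.53 FPKM, against 63.9 and 99.2), TEF13 (6.83, against 96.5 and 145) and PSBX (43.5, against 186 and 265) were lower against both. SLT1 remained higher than in both, with 26.4 FPKM at 4.5 h, against 1.69 and 1.14. For g15199 the value was 1.80 FPKM at 4.5 h, against 0.0979 and 0.104, higher than in both, calls lost with a pseudocount of 5, and at 1.5 and 3 h it was 1.80 and 1.86 FPKM.

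**Figure D5:**
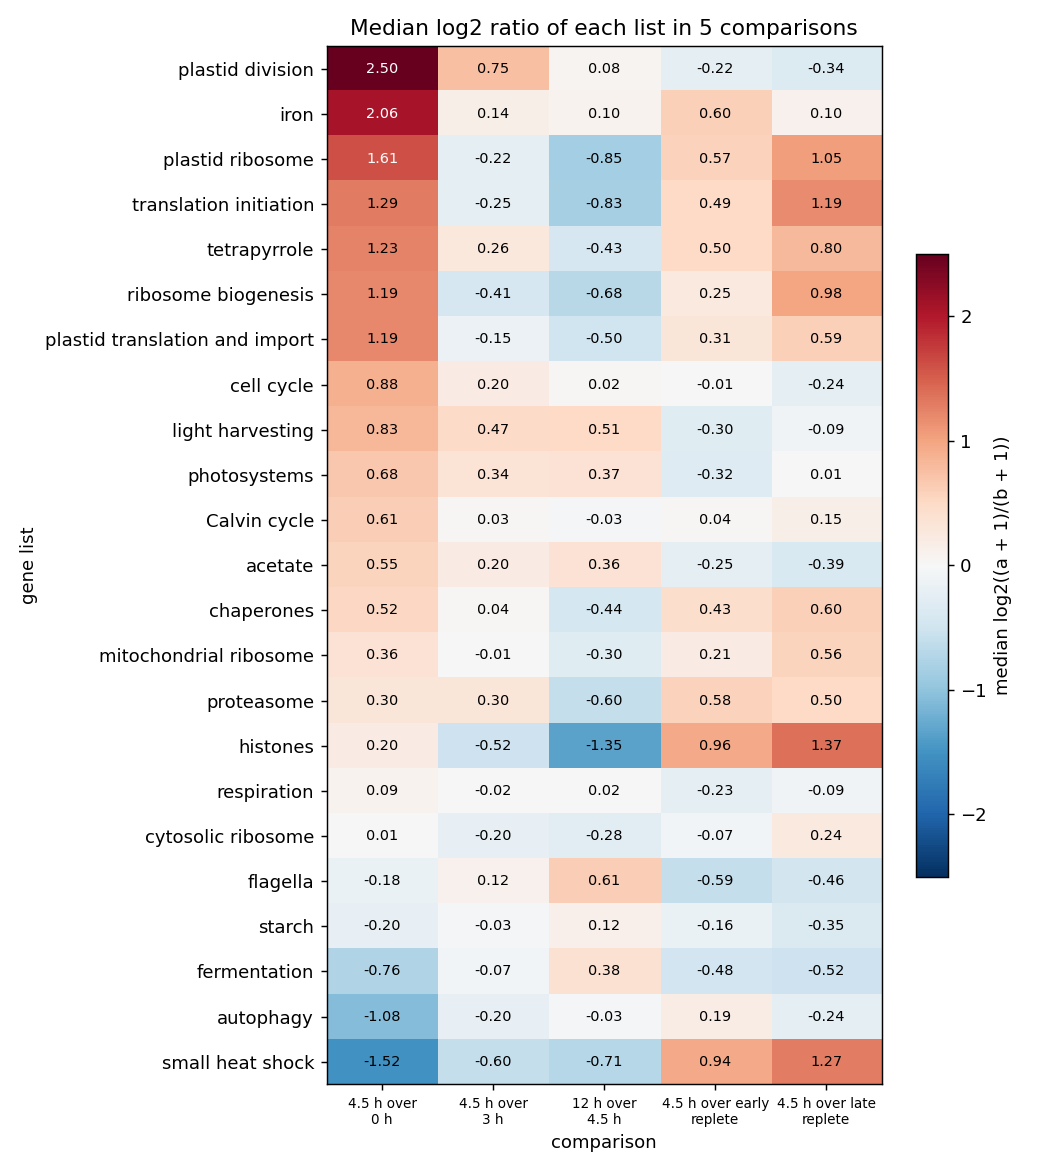
Median log2 ratio of 23 gene lists (rows) in 5 comparisons (columns), each as the first named condition over the second; red is higher and blue lower in the first. The plastid ribosome list has 1.61 against 0 h, -0.85 for 12 h over 4.5 h and 1.05 against late replete cells, while the cell cycle list has 0.88, 0.02 and -0.24.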

How the data were processed

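The series holds 8 conditions with 1 sample each, and values of all 8 were matched to their columns by name, with 0 columns of samples left unused. The authors used TopHat2 and Cuffdiff, per the submitters' processing notes. Not given in the sources used here are versions and genome build, nor is the level of the bounds or the way in which replicates were pooled. The deposited values are FPKM per gene with bounds and a status, per the file headers, and libraries came from a stranded kit, per the labels' protocols. Sequencing depth is unknown: of 1828 genes under 0.2 FPKM in both conditions, at most 1.48% shared a ratio within 1%.

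From these values, ratios with a pseudocount of 1 FPKM and calls (fold threshold 2, bounds apart, mean at least 1 FPKM) were computed in Python 3.11.15 with pandas 2.3.3 and numpy 2.4.6. The rule was run on simulated data in which large changes were set in well expressed genes. Changes near the fold threshold, or in weakly expressed genes, were not simulated. Of 17695 genes, 6229 did not pass the filter on the mean. With 1 value per condition no test was possible, and no error beyond the deposited bounds is known. A value under a status other than OK was left out of its comparison, as in 20 genes at 4.5 h and 35 at 0 h. Coordinates come from the table and count from 1; 380 genes share a span, 35 of them called.

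Genes were chosen for naming as follows: all zinc importer, zinc efflux, copper and iron genes, the 10 highest and 10 lowest ratios with a symbol, up to 3 called members per direction of each other list, and 2 genes without a symbol per direction. Genes outside this rule were chosen after their values were seen: UPD1, CHLD, POR1, LHCBM1, PSRP4, MINE1, MINE2, the further MCM, ORC and SDH genes, CAH4, those at the threshold, and LHCBM4 and Cre07.g352000 in the closing section. The comparison, the gene lists and their members were chosen with earlier results of these data known, the list of plastid division, that of endoplasmic reticulum entry and the APG symbols after values were seen, and wrong symbol matches were removed after the table had been read. Of 51 lists 1 matched no symbol (COG0523 metal GTPases). Of the identifiers, 11713 were found in a table of reference genes (assembly Chlamydomonas_reinhardtii_v5.5), which gave 0 symbols beyond locus tags. Alternatives were other pseudocounts, filters, folds and scalings, and the bounds ignored.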

Additional observations from a re-analysis of the deposited data

How the results depend on the processing

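Against 0 h, the 1171 higher and 747 lower genes numbered 588 and 363 with a pseudocount of 5, 101 and 141 at a fold threshold of 4, and 739 higher under equal totals; with a mean of at least 5 FPKM 434 fell. All 747 lower calls were shared with both rescalings, as were 885 and 739 of the higher calls. Both rescalings move every ratio against 0 h down, with log2 factor ratios of 0.145 and 0.240. No lower call could thus be lost and no higher call gained, so the full sharing of lower calls was fixed in advance. Against 3 h, 29 higher and 11 lower genes numbered 107 and 24 with a pseudocount of 0.1, and 12 and 4 with 5. At 12 h against 4.5 h, 200 and 146 numbered 350 and 251 with 0.1, 84 and 66 with 5, and 327 and 79 under equal totals. Against early replete cells, 141 and 216 numbered 245 and 341 with 0.1, and 59 and 100 with 5. Against late replete cells, 722 higher numbered 360 with 5 and 372 under equal totals, and 382 lower numbered 617 with 0.1, 175 with 5 and 593 under equal totals. The cause of these shifts was not tested. The balance of calls turned from more higher to more lower genes under both rescalings against 0 h (885 and 908, then 739 and 1037) and under equal totals against late replete cells. Among genes named by the rule, none changed the sign of a called ratio. Of these genes, 9 lost their call under the median of ratios, 16 under equal totals, 31 with a pseudocount of 5 and 107 at a fold threshold of 4. CTR1 gained one under both rescalings, IRT1 without the filter on low values, and MTP3 and IRT2 with a pseudocount of 0.1. Among genes named outside the rule, CLH1 gained a call under both rescalings and MSRA2 lost its own. With a pseudocount of 5, MSRA2, SGA1, ORC2, ORC4 and MINE2 lost theirs. No paired analysis was possible because the table holds 1 value per condition and no replicate numbers. Replicates could not be left out for the same reason, and genes under a few FPKM have wide bounds, so their ratios are the least certain.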

Other observations

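Genes called at 4.5 h against 0 h were spread over all chromosomes. The share called higher ran between 7.63% on chromosome 11 and 12.8% on chromosome 5, and the share called lower between 4.83% on chromosome 14 and 9.6% on chromosome 11. Among genes next to each other in the table without overlap, the gene after one called higher was called higher in 12.3% of 1162 cases, beside 10.2% over all pairs. After a gene called lower, the next was called lower in 13.5% of 735 cases, beside 6.49% over all pairs. Neighbours that fell together include ZRT5 with ORC5, HSP22E with HSP22F, and LHCSR3 with LHCSR2; neighbours that rose together include FEA1 with FEA2 and TEF22, and CAH1 with CAH2.

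Cre07.g352000, an unnamed gene directly beside ZRT1 (chromosome 7, 5616513 to 5622604), is listed at 0 FPKM at 0 h with a status other than OK, a failed estimate, so it had no ratio against 0 h. It had 542 FPKM at 1.5 h, 54.2 at 3 h, 13.2 at 4.5 h, 2.52 at 12 h and 2.49 at 24 h, with 2.49 FPKM in the early and 1.84 FPKM in the late replete culture. Its decrease at 4.5 h against 3 h was the largest among the 11 genes called lower in that step.

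The glycoprotein genes FMG1-A and FMG1-B both rose at 4.5 h but lay on opposite sides of the replete cultures, the rise of FMG1-B not being called with a pseudocount of 5. FMG1-A had 24.2 FPKM at 4.5 h, with 0.401 FPKM in the early and 0.614 FPKM in the late replete culture, and FMG1-B had 5.85 FPKM at 4.5 h, with 68.1 and 79.5 FPKM there. LHCBM4 had 351 FPKM at 4.5 h, 105 at 3 h and 198 at 0 h, and 1763 at 12 h, and its reads can be split with close copies. CAH5 had 152 FPKM at 1.5 h, 22.9 at 3 h, 67.6 at 4.5 h and 85.4 at 12 h, an order that is not steady in time.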
